A study of Mus musculus with 6 samples.

Results

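Transcripts of 3 genes of the immediate early response, Fos, Dusp1 and Elk4, were followed in mouse testis on a normal and on a high-fat diet. All rows of the deposited comparison table that carry these symbols, or share an assembled locus with such a row, were taken, which gave 5 of the 831 listed transcripts: 2 of Fos, 1 of Dusp1 and 2 of Elk4. Testis RNA came from C57BL/6 mice that had eaten normal food or high fat food for 8 weeks, and 3 libraries were sequenced for either diet from strand-marked cDNA, numbered 7 to 9 on the normal and 10 to 12 on the high-fat diet. No other agent or allele is named in the labels, the age of the mice is not given there, and whether each library came from its own animal is not stated, so the spread between libraries may be partly technical. The table lists transcripts that the authors called between these same diets, so the 5 transcripts were in effect selected on the authors' adjusted p for that contrast, and their values are given as a description with no test of the diet.

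Immediate early genes are transcribed within minutes of a stimulus, without the need for newly made protein, and their mRNAs are short-lived. Fos encodes a basic leucine zipper protein that pairs with Jun proteins in the transcription factor AP-1. Elk4 encodes an ETS-family factor that binds DNA together with serum response factor and, once phosphorylated by MAP kinases, activates genes such as Fos. It is thus a regulator of the immediate early response. Dusp1 encodes a nuclear phosphatase that removes phosphate from MAP kinases, and its own induction closes a feedback loop.

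The transcripts differed in kind as well as in direction. The 2 transcripts annotated as protein-coding, Fos-201 and Elk4-206, were higher on the high-fat diet. The 3 others, the noncoding Fos-203, the intron-retaining Dusp1-203 and Elk4-207, which GENCODE classes under nonsense-mediated decay, were lower. Of all listed transcripts 55.4% were higher and 44.6% lower. Among annotated protein-coding ones 59.4% were higher, and among annotated ones of other types 55.3% were lower. By the authors' deposited table all 5 passed an adjusted p of 0.05, like 100% of the listed transcripts, which are 0.868% of the 95751 that the authors tested, a number inferred from the ratios of adjusted to unadjusted p-values.

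The parts of the Fos and Dusp1 transcripts that set them apart from the coding mRNA are shown first, because the description turns on them. Fos-203, ENSMUST00000136122, lies on chromosome 12 from 85474691 to 85477273 on the plus strand of GRCm38. It starts inside intron 1 of Fos and runs into exon 2 without a splice. Its intron bases, 244 in number, are in lower case and the first 30 bases of exon 2 in capitals, at chr12:85474691-85474964. Fos-201, ENSMUST00000021674, the canonical mRNA on chromosome 12 from 85473890 to 85477273, has exon 1 in their place. The coding part of that exon, 141 bases at chr12:85474040-85474180, is shown with its start codon in capitals. Dusp1-203, ENSMUST00000126178, lies on chromosome 17 from 26505591 to 26508519 on the minus strand. It keeps intron 2, 369 bases long. The first 100 and the last 100 bases of this intron are shown in lower case, each with 30 bases of the neighbouring exon in capitals, at chr17:26507474-26507603 and chr17:26507175-26507304. Exons and introns are numbered as in the coding mRNA. Sequences are from the GENCODE M21 transcripts.
Fos-203, end of intron 1 and start of exon 2: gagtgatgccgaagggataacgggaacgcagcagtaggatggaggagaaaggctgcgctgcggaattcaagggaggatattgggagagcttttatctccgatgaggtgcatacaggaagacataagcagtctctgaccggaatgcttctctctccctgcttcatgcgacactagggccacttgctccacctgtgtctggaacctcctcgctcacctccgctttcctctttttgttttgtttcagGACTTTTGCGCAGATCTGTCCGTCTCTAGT
Fos-201, coding part of exon 1: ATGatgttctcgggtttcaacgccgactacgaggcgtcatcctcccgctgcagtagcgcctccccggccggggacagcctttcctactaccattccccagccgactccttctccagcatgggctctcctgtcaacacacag
Dusp1-203, end of exon 2 and start of intron 2: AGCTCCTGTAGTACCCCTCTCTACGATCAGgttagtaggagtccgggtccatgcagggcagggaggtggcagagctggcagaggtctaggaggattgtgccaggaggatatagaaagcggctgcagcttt
Dusp1-203, end of intron 2 and start of exon 3: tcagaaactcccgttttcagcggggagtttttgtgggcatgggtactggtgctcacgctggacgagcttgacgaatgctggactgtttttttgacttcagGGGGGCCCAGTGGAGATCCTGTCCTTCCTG

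The Fos intron part ends in the letters of a splice acceptor, cag, directly before the capitals, and the Dusp1 intron opens with gt and ends in ag. Both transcripts read through these letters, where the coding mRNA is spliced. As deposited, the 2 Fos models share 1817 bases, 86.2% of Fos-201 and 88.2% of Fos-203, and both introns of Fos-203 are also introns of Fos-201. Only 291 bases belong to Fos-201 alone and 244 to Fos-203 alone. Fos-203 covers 999 of the 1140 coding bases of Fos-201 and lacks the 141 bases shown above. GENCODE annotates a Fos-203 of 795 bases that ends 1266 bases earlier, so the deposited model carries the whole last exon of the mRNA. The deposited Dusp1-203 starts 45 bases before its GENCODE model. It holds 1989 of the 1990 bases of the coding mRNA Dusp1-202, ENSMUST00000025025, including all 1101 coding bases. It differs from that mRNA by the 369 intron bases. Reads that lie outside these stretches and do not cross the splice of Dusp1 intron 2 match both transcripts of such a pair. No source used here states how the estimated counts were divided between them.

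**Figure D1:**
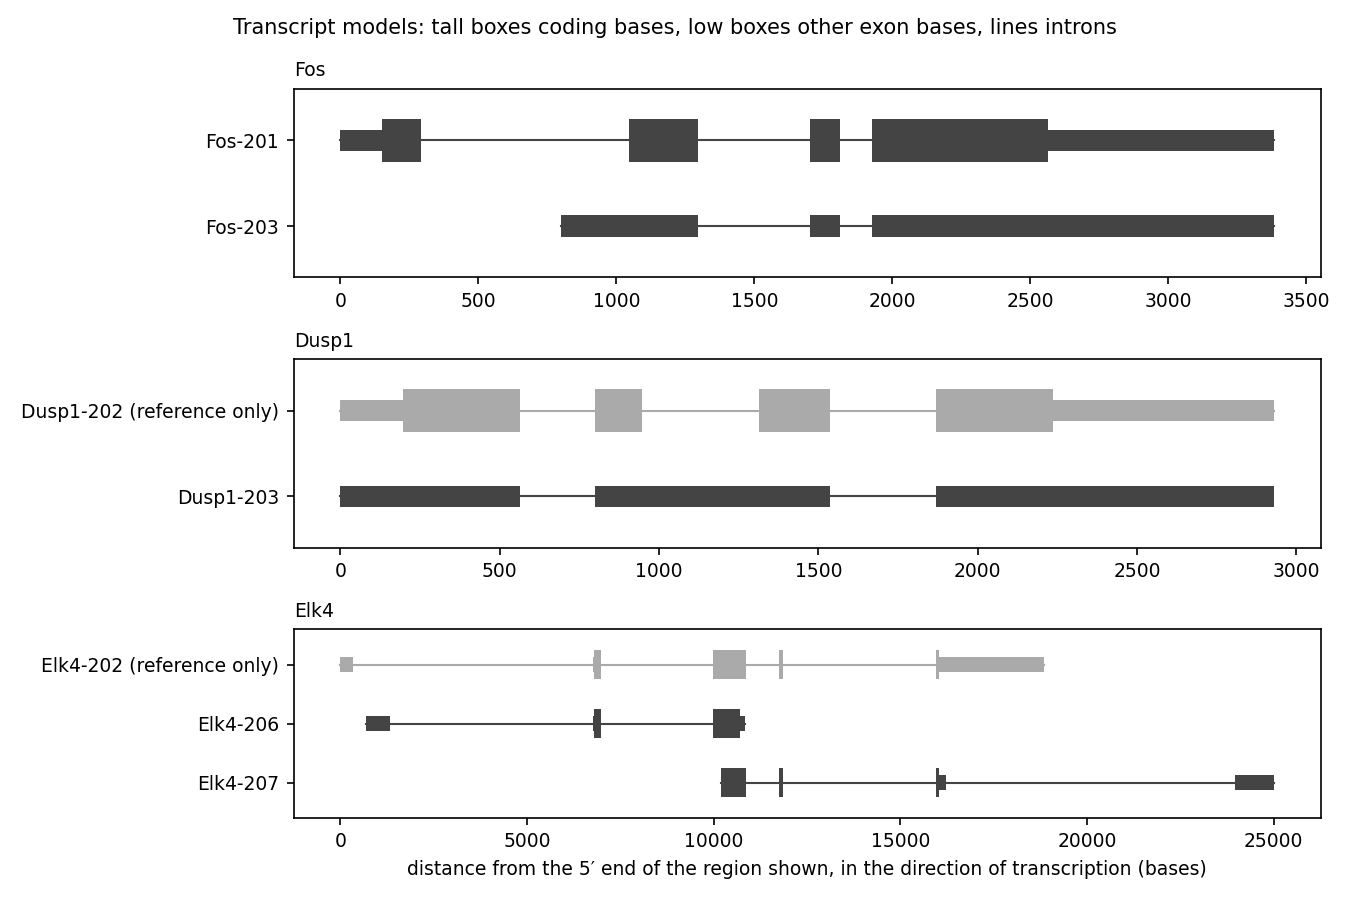
Transcript models of Fos, Dusp1 and Elk4 against the distance in bases from the 5′ end of the region shown, with tall boxes for coding bases, low boxes for other exon bases and lines for introns; dark models are the 5 listed transcripts and grey ones GENCODE transcripts drawn for reference. The Fos models differ by 291 and 244 bases at the 5′ end, Dusp1-203 by the 369 bases of intron 2, and the Elk4 models overlap by 635 bases.

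The Elk4 transcripts have little in common. Elk4-206, ENSMUST00000146432, on chromosome 1 from 132008297 to 132018442 on the plus strand, has 3 exons and 1693 bases and a first exon of 627 bases that Elk4-207 lacks. Elk4-207, ENSMUST00000147218, from 132017808 to 132032612, has 4 exons and 2107 bases and starts inside the exon where Elk4-206 ends. They share 635 bases, 37.5% of the one and 30.1% of the other, and 0 introns. Neither holds the whole coding region of the coding Elk4-202, ENSMUST00000086556, taken as the reference. Elk4-206 covers 1057 and Elk4-207 868 of its 1290 coding bases. GENCODE annotates an Elk4-206 that ends 137 bases earlier and has 920 coding bases, so some of the 1057 lie beyond the annotated end. Elk4-206 overlaps the gene Gm29103 on the same strand over 731 bases and Elk4-207 overlaps Mfsd4a on the opposite strand over 1335 bases, so reads of these neighbours may have entered the estimates. The labels give a strand-specific library, but no source used here states whether the counting was stranded.

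The canonical Fos mRNA, Fos-201, had 0 counts in each normal-diet library and 11, 25 and 21 counts in high-fat libraries 10, 11 and 12. After division by the authors' size factors these were 12.1, 25.0 and 18.4 normalized counts, a mean of 18.5 ± 6.46 (SD, n = 3). The high-fat libraries all lay above the normal-diet ones. This mean was 6.31 times a floor of 3 counts per library on the normal diet. Reads of Fos-201 in the 1817 bases shared with Fos-203 could have been counted there. The ratio to the floor is therefore not a lower limit of the fold change. Floors and intervals here cover counting error only.

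The noncoding Fos-203 went the other way, with 76, 42 and 26 counts in normal-diet libraries 7, 8 and 9 and 0 in each high-fat library. Its normalized counts were 80.8, 40.0 and 24.0, a mean of 48.3 ± 29.3 (SD, n = 3). This was 16.2 times the high-fat floor, or 10.7 times without library 7, and again no lower limit. Library 7 was the highest, at 3.37 times library 9. The coefficient of variation on the normal diet was 60.8%, against 14.4% that counting alone gives at this mean.

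Dusp1-203 was present on both diets. It had 97, 115 and 107 counts in libraries 7, 8 and 9 and 5, 25 and 14 in libraries 10, 11 and 12. The normalized means were 104 ± 5.45 on the normal and 14.3 ± 9.91 on the high-fat diet (SD, n = 3), a 7.27-fold lower level. The fitted log2 fold change (edgeR) was -2.85 ± 0.58 (SE derived from the F statistic), or -3.51 without library 11. The normal-diet libraries lay close together, with a coefficient of variation of 5.25%, below the 9.70% of counting alone. On the high-fat diet library 11 stood at 4.55 times library 10, a coefficient of variation of 69.4% against 26.1% from counting. Even so the lowest normal-diet value, 98.6, lay well above the highest high-fat value, 25.0. The coding Dusp1 mRNA was not analysed here, so these values are not the output of the gene. Dusp1-203 holds 1989 of the 1990 bases of that mRNA, and how shared reads were divided is not stated. Reads of the coding mRNA could therefore have been counted for Dusp1-203. The values are estimates for the Dusp1-203 model, and whether the intron-retaining form itself differed between diets is not shown.

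The coding Elk4-206 was at 0 counts in libraries 7, 8 and 9 and reached 14, 7 and 28 counts in libraries 10, 11 and 12. Its mean on the high-fat diet was 15.7 ± 8.79 normalized counts (SD, n = 3), 5.34 times the normal-diet floor. Library 12 was the highest and library 11 the lowest, whereas library 11 was the highest for Fos-201. The decay-classed Elk4-207 had 62, 38 and 11 counts in libraries 7, 8 and 9 and 0 in each high-fat library. Its mean was 37.4 ± 27.9 normalized counts, 12.6 times the high-fat floor, or 7.77 times without library 7. As for Fos-203, library 7 was the highest and library 9 the lowest, here by 6.50 times, with a coefficient of variation of 74.6% against 16.4% from counting. Because the Elk4 models share 635 bases, their ratios to the floor are no lower limits either. Testis tissue was sequenced in bulk, so for each of these transcripts fewer cells that hold it and less of it per cell cannot be told apart.

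**Figure D2:**
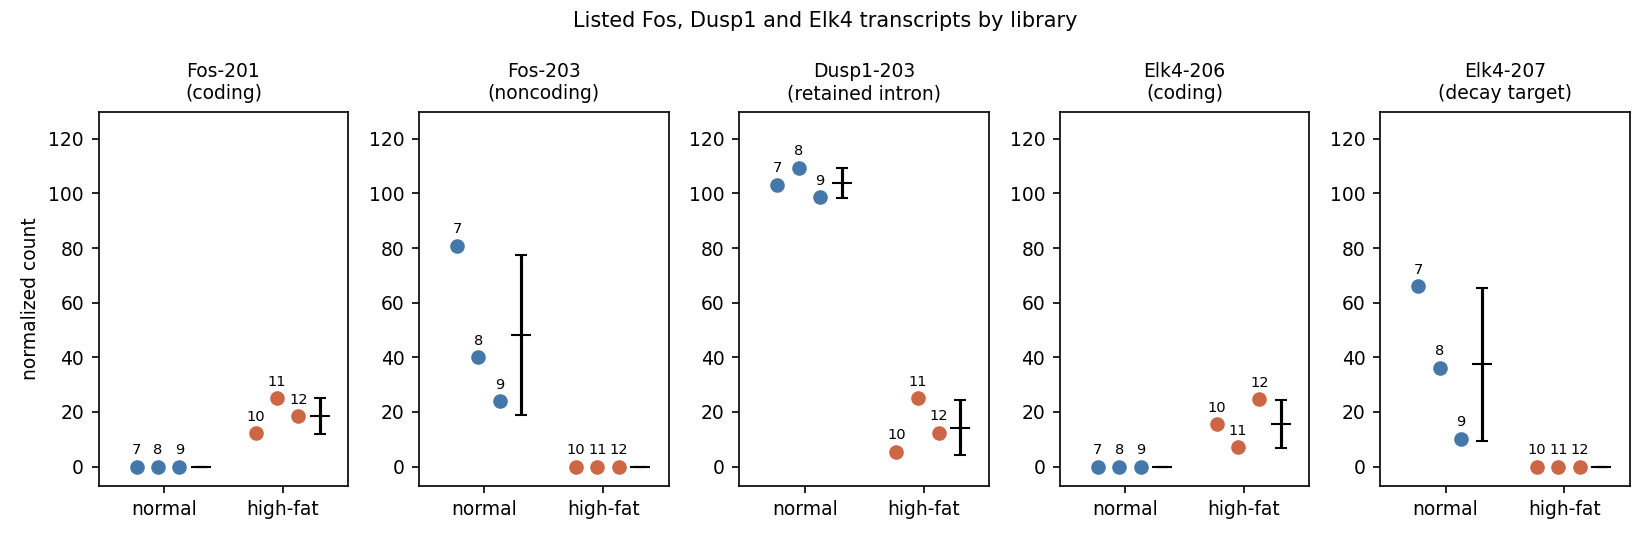
Normalized counts (deposited counts over the authors' size factors) of the 5 transcripts in each library, with normal-diet libraries in blue, high-fat libraries in orange, library numbers above the points, and the mean with SD (n = 3) as a black bar. In all 5 panels the diets do not overlap, and Fos-201, Fos-203, Elk4-206 and Elk4-207 are at 0 in every library of one diet.

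The libraries of the diets did not overlap for 5 of the 5 transcripts, against 91.3% of all listed transcripts. Of the 5, 2 were higher without overlap, as were 50.9% of all listed, and 3 were lower without overlap, as were 40.4%. At 0 in all 3 libraries of one diet were 4 of the 5, against 30.1% of all listed. Fos-201 and Elk4-206 were at 0 in all normal-diet libraries, as were 18.1% of all listed, and Fos-203 and Elk4-207 in all high-fat libraries, as were 12% of all listed. All listed transcripts were chosen for the diet contrast, and nothing particular to the 3 genes is read from these shares. The levels were low for this table. Of the listed transcripts, 32.6% had a mean count below that of Dusp1-203, the most abundant of the 5, and the median listed transcript had a mean of 133 counts over the 6 libraries. In the authors' deposited table the adjusted p was 5.38e-05 for Fos-203, 0.000670 for Fos-201, 0.00169 for Dusp1-203, 0.00189 for Elk4-207 and 0.00820 for Elk4-206, where the highest listed value was 0.0497 and transcripts above 0.05 were not analysed here. With edgeR on the listed counts, 678 of 680 transcripts passed, 99.7%. The filter on low counts kept 4 of the 5, and Elk4-206 was dropped.

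**Figure D3:**
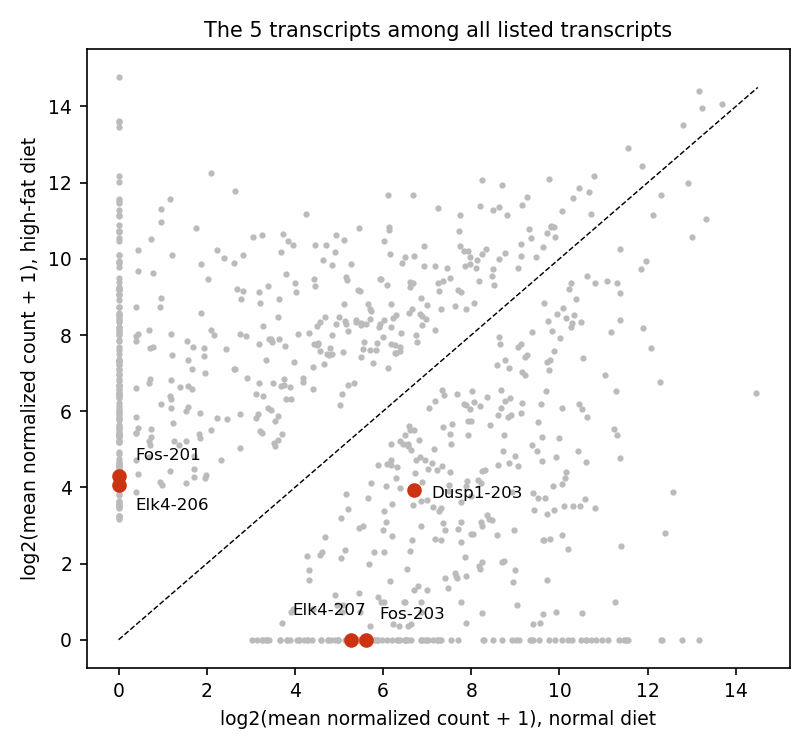
Mean normalized count on the high-fat diet against that on the normal diet, both as log2(mean + 1), for all 831 listed transcripts, with the 5 described here in red and the line of equal levels dashed. Fos-201 and Elk4-206 sit on the left edge at 0 on the normal diet, Fos-203 and Elk4-207 on the lower edge at 0 on the high-fat diet, and Dusp1-203 below the line.

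Per kilobase of transcript the order of levels on the normal diet was Dusp1-203 at 44.0, Fos-203 at 23.4 and Elk4-207 at 17.8 normalized counts per kilobase. The lowest library of Dusp1-203, 41.8, lay above every library of Fos-203, while Fos-203 and Elk4-207 overlapped. On the high-fat diet Elk4-206 stood at 9.26, Fos-201 at 8.79 and Dusp1-203 at 6.05 normalized counts per kilobase, and the libraries of all 3 overlapped.

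Because the estimated counts moved from one Fos model to the other, their sum was also followed. The 2 Fos transcripts together had 76, 42 and 26 counts on the normal and 11, 25 and 21 on the high-fat diet. The normalized sums were 48.3 ± 29.3 and 18.5 ± 6.46 (SD, n = 3), a log2 ratio of -1.38, and the libraries overlapped, since library 11 at 25.0 lay above library 9 at 24.0. Without library 7 the log2 ratio was -0.79. In raw counts, and with TMM scaling, the sums did not overlap. The Elk4 transcripts summed to 37.4 ± 27.9 normalized counts in normal-diet libraries and 15.7 ± 8.79 in high-fat ones, a log2 ratio of -1.26, with overlapping libraries. Without library 7 it was -0.56, and without library 9, at -1.70, the libraries no longer overlapped. Unlisted transcripts of both genes do not enter, and a sum is therefore not the output of the gene.

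**Figure D4:**
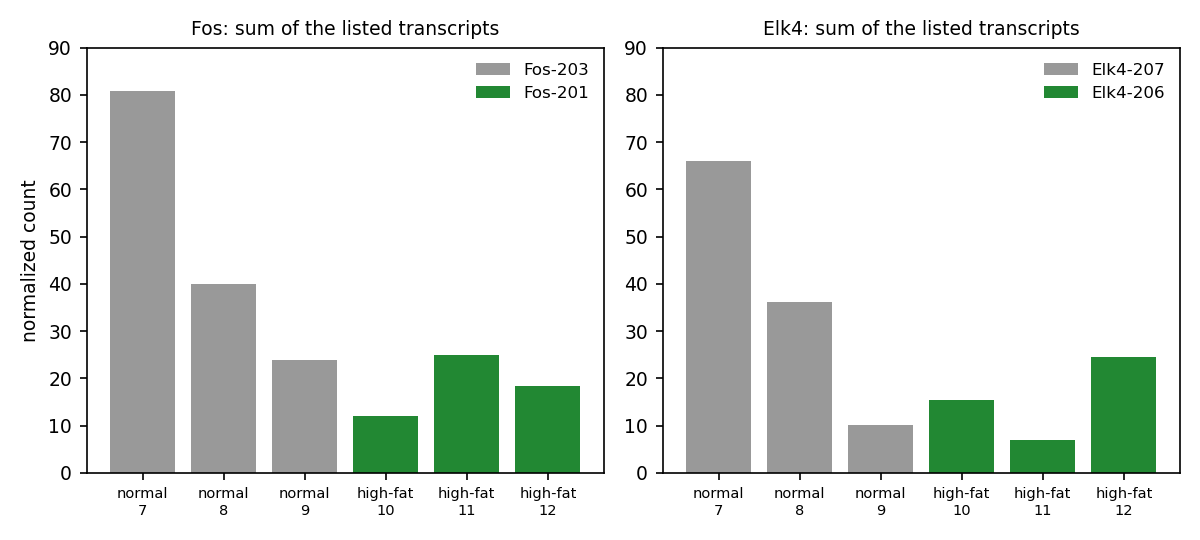
Normalized counts of the listed Fos and Elk4 transcripts stacked for each library, with the noncoding or decay-target transcript in grey and the coding one in green. Each bar holds a single colour, grey in libraries 7 to 9 and green in libraries 10 to 12, and the high-fat bars overlap the lowest normal-diet bar.

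In the estimated counts, one listed transcript fully replaced the other at both loci. Whether the transcripts themselves did so is not shown, since the division of shared reads between the models is not stated. Fos-201 held 0 of 76, 42 and 26 estimated Fos counts in libraries 7, 8 and 9. If each count were a read assigned without error, this would allow a share of up to 3.95%, 7.14% and 11.5%. Fos-203 held 0 of 11, 25 and 21 in libraries 10, 11 and 12, which on the same terms would allow up to 27.3%, 12% and 14.3%. On these terms the limit for Elk4-206 in the normal-diet libraries was 4.84%, 7.89% and 27.3%. For Elk4-207 in the high-fat libraries it was 21.4%, 42.9% and 10.7%. Reads in the shared bases, 1817 for Fos and 635 for Elk4, do not tell the transcripts apart. The true limits are therefore higher and were not computed. A minor share of the other transcript was thus not detectable at this depth.

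The other loci of the table were read in the same way. Of 64 loci with at least 2 listed transcripts, 37 (57.8%) held both directions. In 4 (6.25%) one transcript was at 0 in all normal-diet libraries and another at 0 in all high-fat libraries. Fos and Elk4 are 2 of these 4, and the other 2 hold only transcripts assembled by the authors. The count requires an estimate of exactly 0 and leaves out nearly complete replacements in the estimates. Examples picked after their values were seen are Pdgfrb, where one transcript went from 0 to 293 and the other from 293 to 2.63 normalized counts, and the assembled locus MSTRG.3604, with means from 0 to 1094 and from 677 to 0.334. Among the 37 loci, the Fos sum had the third and the Elk4 sum the fourth lowest ratio of high-fat to normal diet, where the median log2 ratio was 0.15 and the range -3.29 to 3.07. Elk4 had the lowest and Fos the next lowest summed level of the 37. The sums of 13 of the 37 loci did not overlap between diets.

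**Figure D5:**
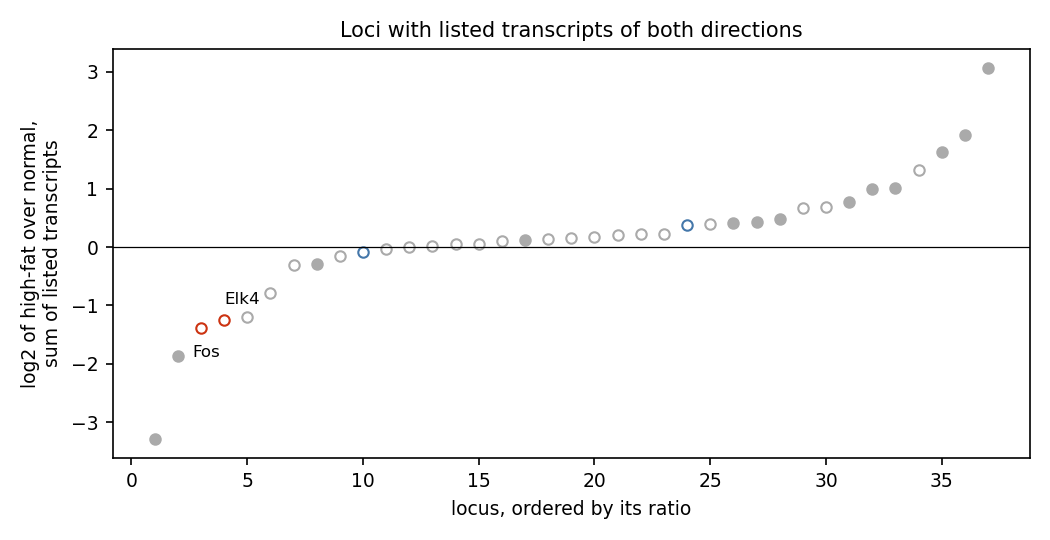
Log2 ratio of high-fat over normal diet of the summed listed transcripts for the 37 loci with listed transcripts of both directions, ordered by the ratio. Filled points are loci whose libraries do not overlap between diets, open points those that do. Fos and Elk4 are in red at -1.38 and -1.26. The other 2 loci with complete replacement in the estimated counts are in blue.

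Promoter sequence was read for the transcripts that begin at an annotated start, since Fos-201 and Elk4-206 were both higher and Dusp1-203 lower. The bases before the listed start are shown from the RefSeq promoter table (GRCm38.p6), in lower case with motif matches in capitals. The Fos window is chr12:85473640-85473889 on the plus strand, the Dusp1 window chr17:26508520-26508722 on the minus strand and the Elk4 window chr1:132008095-132008296 on the plus strand.
Fos promoter: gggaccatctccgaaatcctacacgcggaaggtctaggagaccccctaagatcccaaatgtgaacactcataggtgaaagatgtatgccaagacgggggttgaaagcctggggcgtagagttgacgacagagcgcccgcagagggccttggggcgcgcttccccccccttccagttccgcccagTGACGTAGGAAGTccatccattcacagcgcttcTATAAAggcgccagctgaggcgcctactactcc
Dusp1 promoter: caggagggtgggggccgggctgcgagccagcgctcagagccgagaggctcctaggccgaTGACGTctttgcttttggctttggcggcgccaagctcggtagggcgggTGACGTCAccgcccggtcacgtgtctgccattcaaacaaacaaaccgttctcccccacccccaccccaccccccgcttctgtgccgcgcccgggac
Elk4 promoter, before Elk4-206: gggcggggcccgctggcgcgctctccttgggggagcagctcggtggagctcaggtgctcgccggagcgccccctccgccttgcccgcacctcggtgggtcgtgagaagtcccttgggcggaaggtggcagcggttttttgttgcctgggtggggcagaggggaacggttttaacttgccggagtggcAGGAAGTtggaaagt

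Motifs were searched on both strands of windows of 300 bases. The core of the cyclic AMP response element, TGACGT, began 66 bases before the start of Fos-201, and 144 and 96 bases before that of Dusp1-203. The second Dusp1 match overlaps a match on the other strand, so that the full palindrome stands there. This core is found in 7.51% of 32851 RefSeq promoter windows. The TATA box letters TATAAA, in 13.6% of windows, began 33 bases before Fos-201. An ETS-type core, AGGAAGT, in 9.35% of windows, began 60 bases before Fos-201, directly after the cyclic AMP core, and 15 bases before Elk4-206. The longer ETS core CCGGAAGT, in 3.89% of windows, the AP-1 letters TGANTCA, in 7.81%, and the CArG box bound by serum response factor, in 1.63%, were not in the 3 windows. The windows begin 250 bases before the RefSeq start. Sequence farther upstream was not searched, so the promoters may still hold these sites. A match is a run of letters and not a measured binding site. Fos-203 starts inside the gene and has no such window.

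Other genes of the pathway were read from lists of 121 genes in all. Of the 22 immediate early transcription factors, Fos alone had a listed transcript, and of 22 further immediate early genes 0 had one. Only 0.868% of the transcripts that the authors tested are listed, by the inferred number, and the 3 genes were themselves taken by symbol. The counts per list are therefore given as a description. The name of the group rests on what the 3 genes are known to do, and a wider movement of such genes was not tested. Of the 12 dual specificity phosphatases, Dusp1 alone was listed, and of the 7 genes of serum response factor and its partners Elk4 alone. Heat shock and stress genes had 0 of 16.

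The list of 35 genes for the MAP kinase cascade also held the transcription factors Creb1, Creb3 and Crem. No kinase gene of this list had a listed transcript, annotated or assembled. Of the 35, 1 had an annotated listed transcript, the coding Creb1-209 of the factor that binds the cyclic AMP response element. Creb1-209 had 25, 27 and 30 counts on the normal and 195, 245 and 164 on the high-fat diet, or 26.6 ± 0.975 and 201 ± 51.9 normalized counts (SD, n = 3). A transcript assembled over Crem, which encodes a related factor known for its role in spermatids, had 29, 25 and 22 counts on the normal and 2217, 1145 and 371 on the high-fat diet. Both transcripts were higher in every high-fat library than in any normal-diet library, as were 50.9% of all listed transcripts. Of the 8 genes for binding and decay of AU-rich mRNA, 1 was listed. This was the coding Tia1-203, whose protein binds such mRNAs, with 0 counts in libraries 7, 8 and 9 and 37, 18 and 58 in libraries 10, 11 and 12.

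Markers of other cells of the testis were read from lists of 60 genes. Annotated transcripts were listed for 2, Hsd3b6 of Leydig cells (1 of 7 genes of that list) and Pdgfrb of peritubular cells (1 of 6). Macrophage, Sertoli, endothelial, blood, adipocyte and epididymis lists had 0 listed genes, so their levels were not analysed here. The Pdgfrb transcripts went opposite ways, Pdgfrb-201 from 0 in each normal-diet library to 293 ± 28.8 normalized counts and Pdgfrb-202 from 293 ± 52.1 to 2.63 ± 4.56 (SD, n = 3), and their summed level was 293 ± 52.1 and 295 ± 27.3. A transcript assembled over the germ cell gene Piwil1 was higher, from 46.0 ± 24.8 to 199 ± 62.2 normalized counts (SD, n = 3). One assembled over Ddx4 had 9, 16 and 20 counts in libraries 7, 8 and 9 and 663, 3183 and 18 in libraries 10, 11 and 12, so that library 12 lay within the normal-diet range. The listed Hsd3b6 transcript, the non-canonical Hsd3b6-202, had 1590, 1722 and 8 counts in libraries 7, 8 and 9 and 15, 33 and 5 in libraries 10, 11 and 12. Other Hsd3b6 transcripts were not analysed here, so these counts are not the output of the gene. Library 9, the lowest normal-diet library for Fos-203 and Elk4-207, was also the lowest for Hsd3b6-202. Any link of Hsd3b6-202 with the Fos and Elk4 values was not tested.

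The listed transcripts with the most similar pattern were found by Pearson's r of log2(normalized count + 1) over the 6 libraries, which is given as a description, since every listed transcript had been chosen for a difference between the diets. Closest to Elk4-206 was a coding transcript of the amino acid transporter gene Slc43a1 (r = 0.99998), with 14, 7 and 29 counts in libraries 10, 11 and 12. Tia1-203 was the fourth closest (r = 0.997). Closest to Fos-201 among annotated transcripts was one of Epb41 (r = 0.9997), which encodes a protein of the membrane skeleton, at 145, 592 and 317 counts. Closest to Fos-203 was a transcript of the uridine phosphorylase gene Upp1 (r = 0.999), at 11, 9 and 6 counts in libraries 7, 8 and 9. Closest to Elk4-207 among annotated transcripts was one of the tetraspanin gene Tspan17 (r = 0.998), at 63, 54 and 12 counts.

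Closest to Dusp1-203 was ENSMUST00000176913 of Fbxw17, classed under nonsense-mediated decay (r = 0.992), with 24, 23 and 25 counts on the normal and 2, 6 and 4 on the high-fat diet. An r above 0.95 was found with 182 other listed transcripts (21.9%) for Fos-201 and 123 (14.8%) for Fos-203. It was found with 108 (13.0%) for Elk4-206, 75 (9.04%) for Elk4-207 and 34 (4.10%) for Dusp1-203. Between Fos-203 and Elk4-207 r was 0.991, and between Fos-201 and Elk4-206 it was 0.944. The difference between diets sets most of these values.

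The authors' deposited enrichment tables list 35 sets. FOS is a member of 2, DUSP1 of 6 and ELK4 of 3. In the authors' deposited tables FOS stands at 48 on the normal and 0 on the high-fat diet and ELK4 at 37 and 0, which are the means of Fos-203 and Elk4-207 and not of the coding transcripts. DUSP1 stands at 104 and 14, the means of Dusp1-203. FOS thus counts as a lower member of the Reactome set of cellular responses to external stimuli, with 8 of 8 members lower and q = 0.915. DUSP1 and ELK4 share 3 network neighbourhoods, around IL2RG, JAK3 and the IL2 gene, with q = 0.324 each in the authors' deposited table. For FOS and ELK4 the sets therefore hold the direction of the noncoding or decay-classed transcript, opposite to that of the listed coding transcript.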

How the data were processed

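Per the submitters' processing notes, Trimmomatic, HISAT2, StringTie, DESeq and the build GRCm38 were used, without versions or roles. The deposited table holds estimated counts per transcript, whole numbers as deposited. The authors also deposited the same counts after scaling and rounding, and their means per diet, treated as a score. A deposited signal column holds the mean over all libraries. For each transcript the authors' ratio, its log2 value and their unadjusted and adjusted p-value were copied as theirs, as were q-values of the deposited sets. No source used here gives the depth of whole libraries. Over the listed rows the counts per library total 362790 to 490603.

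Each size factor was the median of count over scaled count at counts of at least 5000, between 0.908 and 1.14. Normalized counts are counts over these factors. edgeR 4.0.16 in R 4.3.3 (quasi-likelihood, filterByExpr with a minimum count of 10, Benjamini-Hochberg adjustment, threshold 0.05) was fitted on all listed transcripts. It was also run on simulated data in which most transcripts were unchanged. All listed transcripts were chosen for the diet contrast, so that run does not show how the fit performs on this table. The SE of the edgeR log2 fold change was derived as its absolute value over the square root of the quasi-likelihood F statistic. DESeq2 1.42.0 was an alternative. With the listed ends, GENCODE M21 exons gave the deposited length for 5 of the 5 transcripts. Promoters are RefSeq windows from 250 bases before to 50 after a start, and the one nearest to the listed start was used, at most 48 bases away. All sample columns were used.

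The members, the gene lists and the tests were chosen with earlier results of these data known. Named are the 5 transcripts, listed transcripts of the list genes, including those assembled over them, and transcripts among the 5 with the highest r to a member. The Slc43a1, Epb41, Upp1, Tspan17 and Fbxw17 transcripts were taken as the closest annotated ones.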

Additional observations from a re-analysis of the deposited data

How the results depend on the processing

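For the 5 transcripts, the diets did not overlap with the authors' size factors, TMM, DESeq2 size factors, totals of the listed transcripts, or without any 1 library. Of the 5, 4 are at 0 in a whole diet, so that no setting could turn their direction. The fitted log2 fold change of Dusp1-203 was -3.19 with TMM, -3.42 with DESeq2 size factors and between -3.51 and -2.47 when 1 library was left out. The median of all tested transcripts moved by -0.35 (log2) with TMM, -0.52 with DESeq2 size factors and -0.16 with listed totals. The ratios to the floor of 3 counts were recomputed without each library, a choice made after seeing the data. They ranged from 10.7 to 20.3 for Fos-203, 5.20 to 7.40 for Fos-201, 7.77 to 17.1 for Elk4-207 and 3.82 to 6.81 for Elk4-206. Leaving out 1 library gave log2 ratios of the Fos sum between -1.70 and -0.79, and of the Elk4 sum between -1.74 and -0.56. The Elk4-206 share of Elk4 on the high-fat diet is 100% in each library, so leaving one out cannot move it. The sums of Fos and Elk4 were -1.86 and -1.73 with TMM and -1.34 and -1.18 in raw counts. Calls across the table numbered 678 (379 higher, 299 lower), 657 with TMM (353 higher, 304 lower), 669 with listed totals, 628 with DESeq2 size factors, 822 without the filter, 831 with DESeq2, and 694 to 713 without 1 library. No paired analysis was possible because the diets share no replicate numbers. Nonzero counts of the 5 transcripts were between 5 and 115, which limits all shares and sums, and Elk4-206 was not fitted without libraries 10 or 12, with TMM, with DESeq2 size factors or with listed totals, because the filter dropped it.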
